A study of Mus musculus with 2 samples.

Results

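Cxcl9, Cxcl10 and Cxcr3, 3 of the 32285 genes in the files, were followed across the immune cells of the inflamed mouse central nervous system (CNS). They encode a pair of chemokines and the receptor that reads them, and their rows were taken by gene symbol from both libraries. Mice of the C57BL/6 strain had EAE (experimental autoimmune encephalomyelitis), in which T cells attack myelin as a model of multiple sclerosis, induced by MOG peptide in CFA (complete Freund's adjuvant) with PTX (pertussis toxin). On day 15, CNS mononuclear cells of each genotype were pooled and sorted as MHCII+ CD11c+ cells, a gate meant for antigen-presenting cells. Stat4fl/flCD11cCre mice carry a floxed Stat4 gene, for the transcription factor that passes on IL-12 and IL-23 signals, and express Cre recombinase under the CD11c promoter. This promoter is active in dendritic cells (DCs) and in other cells that use it. WT mice were immunized in the same way. Each genotype gave 1 library from pooled mice, so no difference between genotypes has a replicate check and no p-value is given. All 95% intervals cover counting error only.

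CXCL9 and CXCL10 are small secreted proteins that myeloid cells make in response to interferons. Interferon-gamma is the classical inducer of Cxcl9, while Cxcl10 also answers type I interferon and NF-kB. Both bind CXCR3, a receptor found on activated CD8 T cells, type 1 helper T cells, part of the regulatory T cells and NK cells, and on mouse plasmacytoid DCs, and they guide such cells into inflamed tissue. Cxcl11, the gene of the other CXCR3 ligand, was not analysed here.

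The ligand genes are neighbours on chromosome 5 (GRCm38, GENCODE M21 annotation) and are read from the minus strand. Cxcl9 (ENSMUSG00000029417) spans chr5:92321347-92328079 and Cxcl10 (ENSMUSG00000034855) spans chr5:92346638-92348889, with 18558 bases between them and 4 exons in each. Cxcr3 (ENSMUSG00000050232) lies at chrX:101731535-101734269 on the minus strand and has 2 exons. The 250 bases before each ligand's start (RefSeq, GRCm38.p6, minus strand, chr5:92328080-92328329 and chr5:92348890-92349139) are shown as a description of the neighbours. Capitals mark the letters of an interferon-stimulated response element (ISRE, searched as GAAA, 2 bases of any kind, then GAAA) or an NF-kB element (searched as GGGA, 4 bases of any kind, then CC), on either strand.
Cxcl9: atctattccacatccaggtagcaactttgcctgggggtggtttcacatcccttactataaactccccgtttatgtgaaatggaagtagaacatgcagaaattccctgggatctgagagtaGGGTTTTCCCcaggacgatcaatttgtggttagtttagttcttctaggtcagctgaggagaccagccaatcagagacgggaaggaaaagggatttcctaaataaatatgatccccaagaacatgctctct
Cxcl10: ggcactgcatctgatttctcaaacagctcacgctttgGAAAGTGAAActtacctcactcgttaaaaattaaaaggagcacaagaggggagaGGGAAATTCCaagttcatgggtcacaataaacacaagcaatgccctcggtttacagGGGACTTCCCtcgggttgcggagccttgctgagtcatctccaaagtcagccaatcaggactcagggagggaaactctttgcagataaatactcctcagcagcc
The Cxcl10 window held 1 ISRE match, 213 to 204 bases before the start, and 2 NF-kB matches, at 159 to 150 and at 103 to 94 bases, of which the nearer one matches on both strands. The Cxcl9 window held 1 NF-kB match, on the opposite strand at 130 to 121 bases. Neither window matched the letters searched for the gamma-activated site, TTC, 3 bases of any kind, then GAA. Other forms of interferon-gamma elements were not searched, so this does not show that they are absent. Among 32851 promoter windows of this length, 2.98% held the ISRE letters, 17.6% the NF-kB letters, 7.02% the gamma-activated site and 0.387% both the ISRE and the NF-kB letters. A match of letters is a description and says nothing of binding.

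A barcode counted as a cell at 500 genes and 1000 UMIs (counted RNA molecules) or above, with mitochondrial UMIs below 10%. This left 12305 Stat4fl/flCD11cCre cells and 13298 WT cells, with a median of 6878 UMIs in Stat4fl/flCD11cCre and 6440 in WT. Cells took a type from panels of 8 marker genes, where 3 or more markers were found and at least 2 more than of any other lineage. Ungated cells made up 17.0% of the Stat4fl/flCD11cCre library and 24.0% of WT. The sorted label was met in part: 306 Stat4fl/flCD11cCre cells and 310 WT cells passed a DC or plasmacytoid DC gate, whereas microglia, monocyte-derived cells and T cells were far more numerous. Itgax, the gene of CD11c, was found in 18.6% of Stat4fl/flCD11cCre and 18.2% of WT CD8 T cells. In NK cells it was found in 29.95% in Stat4fl/flCD11cCre and 23.8% in WT, and in microglia in 7.68% in Stat4fl/flCD11cCre and 15.3% in WT. Which of these cells expressed Cre was not tested. Stat4 stood at 57.9 CPM (the gene's UMIs scaled to counts per 1e6 UMIs of the cell type) in Stat4fl/flCD11cCre conventional DCs and 61.2 CPM in WT, a log2 ratio of -0.08 (-0.49 to 0.33). Which exons are floxed is not stated in the labels, and reads near the 3′ end can lie outside them, so this value does not check the deletion. The libraries shared 42 kept barcodes.

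Over all kept cells both ligands and the receptor were lower in Stat4fl/flCD11cCre. Cxcl9 had 176 CPM (173 to 178) in Stat4fl/flCD11cCre and 391 CPM (388 to 395) in WT. Cxcl10 had 231 CPM (228 to 234) in Stat4fl/flCD11cCre and 464 CPM (460 to 468) in WT. Cxcr3 had 8.57 CPM (8.06 to 9.11) in Stat4fl/flCD11cCre and 17.1 CPM (16.4 to 17.8) in WT. The makeup of the libraries differed as well: microglia were 43.9% of Stat4fl/flCD11cCre cells and 27.8% of WT cells, T cells were 8.70% in Stat4fl/flCD11cCre and 17.7% in WT, and monocyte-derived cells 15.7% in Stat4fl/flCD11cCre and 19.1% in WT. Levels within a cell type are therefore given next.

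Among types with 50 or more cells in each library, Cxcl9 was highest in Nos2+ macrophages, monocyte-derived cells with RNA of the inducible nitric oxide synthase. They had 1541 CPM of Cxcl9 (1494 to 1589) in Stat4fl/flCD11cCre and 1449 CPM (1412 to 1488) in WT. Ly6c2+ monocytes, the inflammatory monocytes that enter from blood, had 283 CPM (273 to 292) in Stat4fl/flCD11cCre and 692 CPM (676 to 709) in WT. Arg1+ Nos2- macrophages, which carry arginase 1 instead, had 284 CPM (272 to 296) in Stat4fl/flCD11cCre and 481 CPM (466 to 497) in WT. The order of these types thus depended on the library: Ly6c2+ monocytes and Arg1+ Nos2- macrophages had overlapping intervals in Stat4fl/flCD11cCre, and the monocytes stood above in WT. Microglia, the resident macrophages of the CNS, had 103 CPM (99.5 to 106) in Stat4fl/flCD11cCre and 277 CPM (271 to 283) in WT.

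Cxcl10 had a different order. Ly6c2+ monocytes had 519.9 CPM (507 to 533) in Stat4fl/flCD11cCre and 1076 CPM (1056 to 1097) in WT, the highest level of that library. Nos2+ macrophages had 626 CPM (596 to 656) in Stat4fl/flCD11cCre and 792 CPM (764 to 820.3) in WT. The small group of other monocyte-derived cells, with neither Nos2, Arg1 nor Ly6c2, had 746 CPM in each library, which was the highest level in Stat4fl/flCD11cCre. There it rested on 11 positive cells, of which 10 held 99.8% of the UMIs, against 42 positive cells in WT. Neutrophils had 339.6 CPM of Cxcl10 (323 to 357) in Stat4fl/flCD11cCre and 713 CPM (679 to 748) in WT, more than they had of Cxcl9, at 85.8 CPM (77.6 to 94.7) in Stat4fl/flCD11cCre and 388 CPM (363 to 414) in WT. The UMI ratio of Cxcl9 to Cxcl10 differed between types. It was 2.46 in Stat4fl/flCD11cCre and 1.83 in WT for Nos2+ macrophages, and 1.21 in Stat4fl/flCD11cCre and 1.13 in WT for Arg1+ Nos2- macrophages. It was 0.544 in Stat4fl/flCD11cCre and 0.643 in WT for Ly6c2+ monocytes, and 0.620 in Stat4fl/flCD11cCre and 0.735 in WT for microglia. Such a ratio can be compared between cell types but is no ratio of molecules, since the capture of the 2 transcripts may differ.

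**Figure D1:**
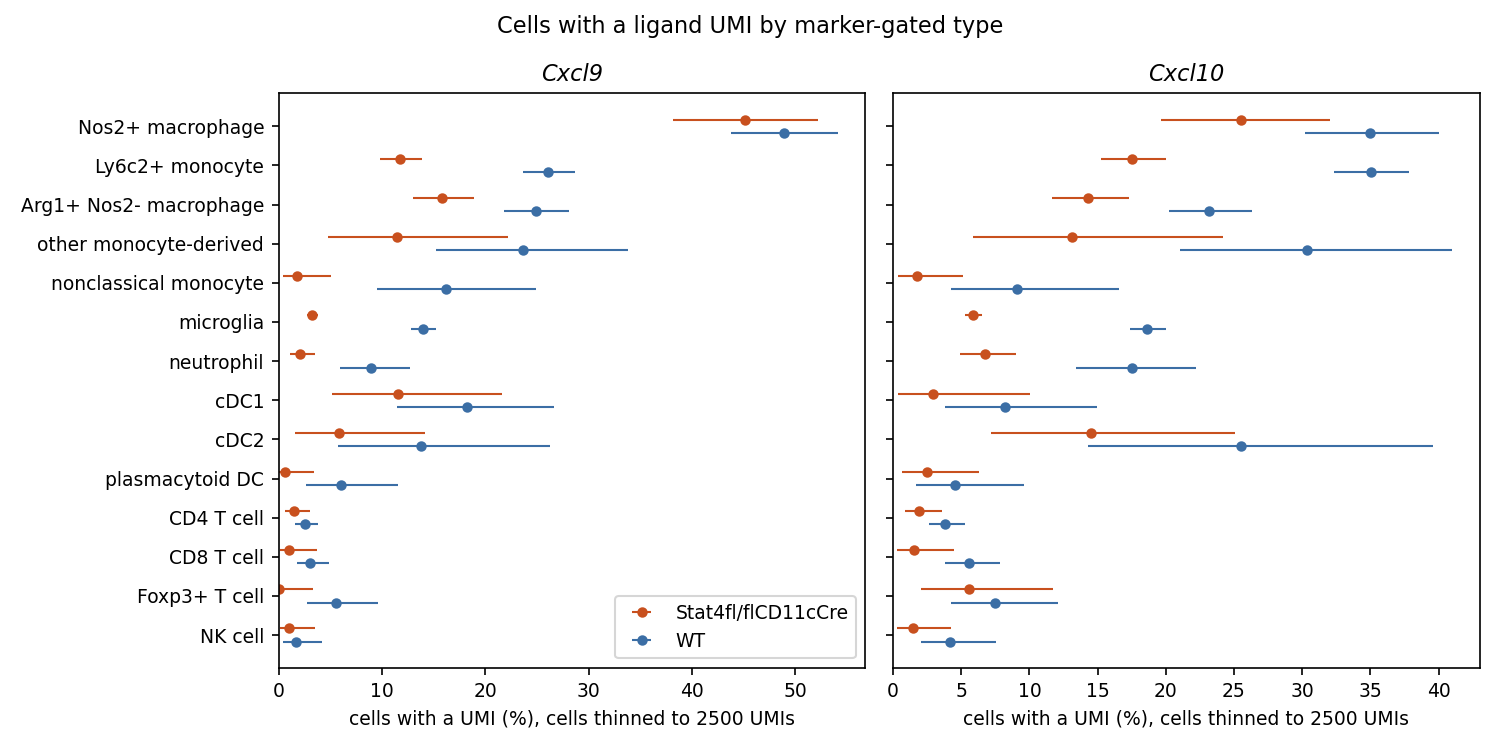
Share of cells with at least 1 UMI of Cxcl9 (left) or Cxcl10 (right) after each cell was thinned to 2500 UMIs, by marker-gated type, in Stat4fl/flCD11cCre (orange, upper point) and WT (blue, lower point), with 95% Clopper-Pearson intervals. Nos2+ macrophages lead for Cxcl9 at 45.1% in Stat4fl/flCD11cCre and 48.9% in WT, microglia stand at 3.25% in Stat4fl/flCD11cCre and 14.0% in WT, and lymphocytes lie at the low end.

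The share of cells with a ligand UMI gives each cell the same weight, so it depends less on a few cells with very many UMIs. Cells were thinned to 2500 UMIs, which left out 6.23% of Stat4fl/flCD11cCre cells and 9.75% of WT cells as too shallow. Neutrophils lost more, with 635 of 965 kept in Stat4fl/flCD11cCre and 303 of 591 in WT. After thinning, this share was lower in Stat4fl/flCD11cCre in all 10 myeloid and DC gates for Cxcl9 and for Cxcl10. It was also lower in all 6 lymphocyte gates for each ligand, so the direction was not particular to ligand-bearing types. For Cxcl9 it was 3.25% (2.78 to 3.76) of Stat4fl/flCD11cCre microglia and 14.0% (12.9 to 15.2) of WT microglia. In Ly6c2+ monocytes Cxcl9 was found in 11.8% (9.84 to 13.9) of Stat4fl/flCD11cCre cells and 26.1% (23.6 to 28.7) of WT cells. Cxcl10 was found in 5.88% (5.25 to 6.55) of Stat4fl/flCD11cCre microglia and 18.7% (17.4 to 20) of WT microglia. In Ly6c2+ monocytes it was found in 17.5% (15.2 to 20.01) of Stat4fl/flCD11cCre cells and 35.0% (32.3 to 37.8) of WT cells. The intervals of the genotypes, which cover counting error only, did not overlap in these 4 cases. Such shares were not compared over all genes, so how common this is among other genes is not known. In Nos2+ macrophages the intervals overlapped, with Cxcl9 in 45.1% (38.1 to 52.2) of Stat4fl/flCD11cCre cells and 48.9% (43.8 to 54.1) of WT cells. Cxcl10 was found in 25.5% (19.7 to 32.05) of Stat4fl/flCD11cCre and 35.0% (30.2 to 40.03) of WT Nos2+ macrophages, with less overlap. The unthinned shares of Cxcl9 were 5.24% in Stat4fl/flCD11cCre and 20.6% in WT microglia, and 22.7% in Stat4fl/flCD11cCre and 36.2% in WT over all monocyte-derived cells together.

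T cells and NK cells, which are not known as makers of these chemokines, gave the background. Cxcl9 was found in 1.05% of Stat4fl/flCD11cCre T cells and 3.03% of WT T cells, and Cxcl10 in 2.39% in Stat4fl/flCD11cCre and 4.84% in WT, at the same thinned depth. This background was itself lower in Stat4fl/flCD11cCre. In Stat4fl/flCD11cCre the Cxcl9 share was 1.78% (0.368 to 5.10) of nonclassical monocytes and 2.05% (1.09 to 3.47) of neutrophils. Both lay above the T cell share of that library, 1.05% (0.527 to 1.88), with overlapping intervals. A count of 10 or more Cxcl9 UMIs in 1 cell was rare in lymphocytes, at 5 of 481 Stat4fl/flCD11cCre and 4 of 920 WT CD4 T cells. Such cells made up 1.78% of Stat4fl/flCD11cCre microglia and 5.53% of WT microglia for Cxcl9, and 3.02% in Stat4fl/flCD11cCre and 7.99% in WT for Cxcl10. In Ly6c2+ monocytes they were 7.19% in Stat4fl/flCD11cCre and 15.2% in WT for Cxcl9, and 11.1% in Stat4fl/flCD11cCre and 19.2% in WT for Cxcl10.

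The levels summed over a type were compared as the log2 ratio of Stat4fl/flCD11cCre over WT. A gene was counted as lower or higher where the ratio was 1.5-fold or more. By this rule Cxcl9 was lower in 9 of the 10 myeloid and DC gates, and Cxcl10 was lower in 5 and higher in 1. In microglia the ratio of Cxcl9 was -1.43 (-1.49 to -1.38) and that of Cxcl10 -1.19 (-1.23 to -1.14), in a type where 11.3% of the genes tested were lower. In Ly6c2+ monocytes Cxcl9 stood at -1.29 (-1.35 to -1.23) and Cxcl10 at -1.05 (-1.095 to -1.004), where 7.28% of genes were lower. Among the 136 Stat4fl/flCD11cCre and 325 WT monocytes with at most 1 marker of any other lineage, Cxcl9 stood at -0.85. Their Cxcl10 was at 1227 CPM in Stat4fl/flCD11cCre and 1224 CPM in WT, a ratio of 0.00 (-0.10 to 0.10), so the difference in its summed level was gone there. Without thinning, the share of these cells with Cxcl10 was still lower, at 32.4% in Stat4fl/flCD11cCre and 42.8% in WT. Arg1+ Nos2- macrophages had -0.76 for Cxcl9 and -0.85 for Cxcl10, where 4.52% of genes were lower, and neither reached 1.5-fold with at most 1 marker of any other lineage, at -0.44 for Cxcl9 and -0.50 for Cxcl10. As a mean of per-cell CPM, Cxcl9 in these macrophages also fell just short, at -0.57. Neutrophils had -2.18 for Cxcl9 and -1.07 for Cxcl10, but there 17.1% of all genes were lower and the median over all genes was -0.18. The size of the neutrophil ratios varied with the cells admitted: for Cxcl9 it was -1.26 with a looser gate of 2 markers and a margin of 1, and -3.46 without the 10 cells with most UMIs, and for Cxcl10 it was -2.05 with a stricter gate of 4 markers and a margin of 3, and -0.68 after thinning. Thinning kept 635 of 965 Stat4fl/flCD11cCre neutrophils and 303 of 591 WT neutrophils.

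Nos2+ macrophages were the 1 gate of the 10 myeloid and DC gates in which Cxcl9 was not lower. Their summed Cxcl9 level was 0.09 (0.03 to 0.15) on the log2 scale above WT, and that of Cxcl10 was -0.34 (-0.43 to -0.25), so that neither reached 1.5-fold, where 4.92% of genes were lower. The Cxcl9 value rested on few cells: without the 10 cells with most Cxcl9 UMIs in each library it turned to -0.21, while with at most 1 marker of any other lineage it was 0.75. Under the same settings Cxcl10 was -0.86 and 0.51. Those 10 cells held 38.0% of the Cxcl9 UMIs of the type in Stat4fl/flCD11cCre and 23.0% in WT. In nonclassical monocytes, a patrolling blood type, the ratios were -3.96 for Cxcl9 and -3.15 for Cxcl10, where 6.39% of genes were lower, from 30 UMIs of Cxcl9 in Stat4fl/flCD11cCre and 290 in WT. Only 5 Stat4fl/flCD11cCre cells of this gate had any Cxcl9, and 10 WT cells held 92.8% of the WT UMIs; with the looser gate the ratios were smaller, at -2.12 for Cxcl9 and -2.11 for Cxcl10. The other monocyte-derived cells had -1.74 for Cxcl9, where 12.9% of genes were lower, and 0.00 for Cxcl10. That Cxcl10 value turned to -6.75 without the 10 cells with most UMIs, and the share of cells with Cxcl10 was 13.1% in Stat4fl/flCD11cCre and 30.3% in WT.

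**Figure D2:**
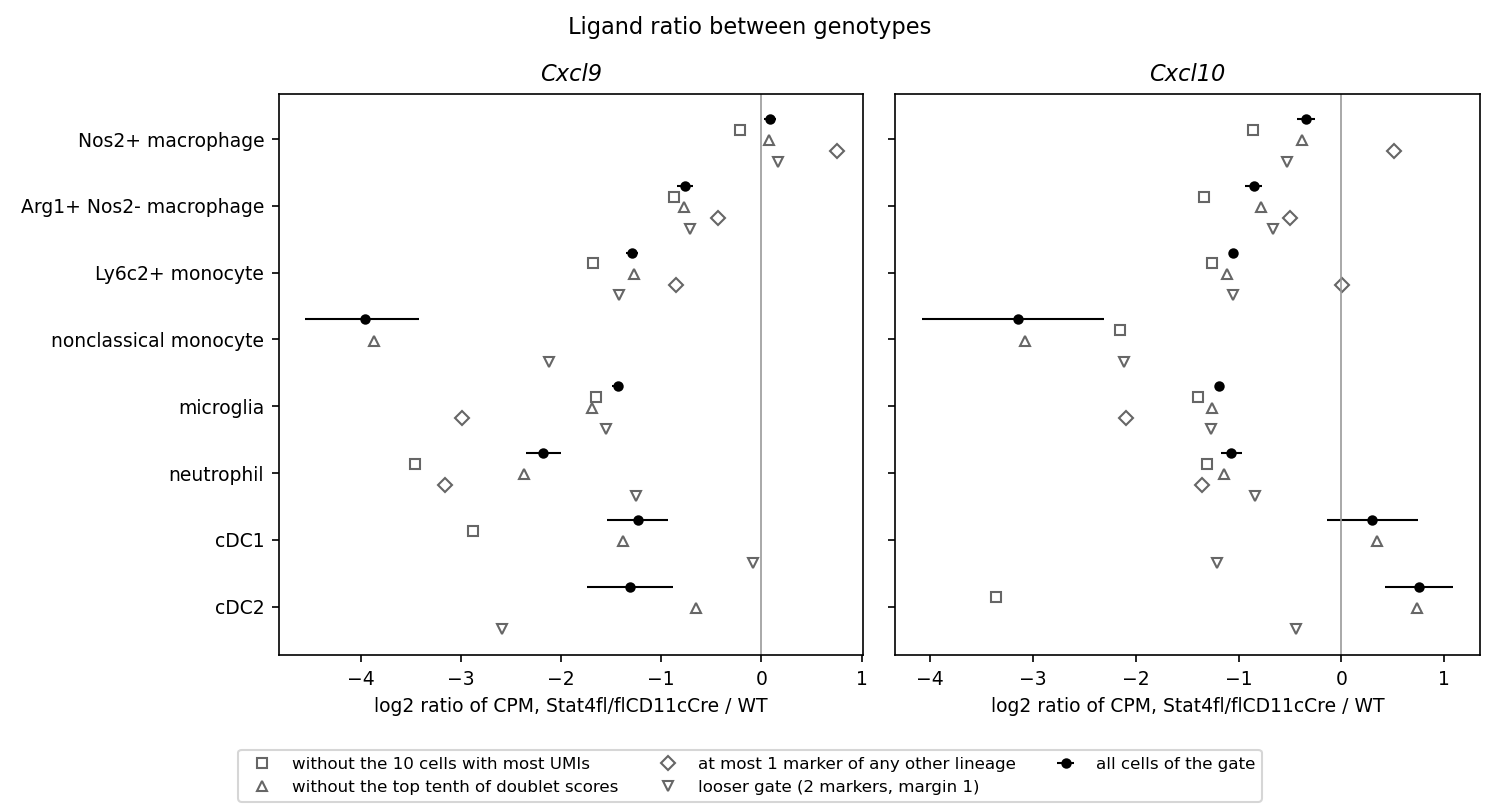
Log2 ratio of CPM, Stat4fl/flCD11cCre over WT, for Cxcl9 (left) and Cxcl10 (right) by gated type, over all cells with its 95% counting interval (filled circles), without the 10 cells with most UMIs of the gene per library and type (squares), without the 10% of cells with the highest doublet score per library (upward triangles), with at most 1 marker of any other lineage (diamonds) and with the looser gate (downward triangles). Microglia lie below 0 in each setting drawn, whereas Cxcl10 lies at 0.00 in Ly6c2+ monocytes with at most 1 marker of any other lineage and changes side in cDC2, and a missing symbol had too few cells or UMIs left.

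Dendritic cells, among the types in which the CD11c promoter is active, were few. cDC1, the cross-presenting DCs, numbered 69 in Stat4fl/flCD11cCre and 113 in WT, and cDC2 numbered 69 in Stat4fl/flCD11cCre and 51 in WT. Cxcl9 in cDC1 was 123 CPM (102 to 147) in Stat4fl/flCD11cCre and 290 CPM (260.2 to 322) in WT, a ratio of -1.24, where 3.74% of genes were lower. This difference depended on the gate: the ratio was -0.50 with the stricter gate and -0.08 (-0.27 to 0.11) with the looser one, both short of 1.5-fold. In cDC2 it was 107 CPM (85.1 to 133) in Stat4fl/flCD11cCre and 265 CPM (218 to 320.2) in WT, a ratio of -1.31, where 7.87% of genes were lower, and it was -2.59 with the looser gate and -0.66 without the top 10% of doublet scores. Their shares of cells overlapped between genotypes, at 11.6% in Stat4fl/flCD11cCre and 18.2% in WT for cDC1, and 5.80% in Stat4fl/flCD11cCre and 13.7% in WT for cDC2. Cxcl10 had no stable direction: in cDC2 the summed level was 422 CPM in Stat4fl/flCD11cCre and 250.5 CPM in WT (ratio 0.75, where 4.77% of genes were higher), while the share of cells was 14.5% in Stat4fl/flCD11cCre and 25.5% in WT. Its ratio in cDC2 turned to -3.36 without the 10 cells with most UMIs and to -0.44 with the looser gate. Plasmacytoid DCs had 3 UMIs of Cxcl9 in Stat4fl/flCD11cCre and 142 in WT, where 3.8% of genes were lower, and this difference was gone with the looser gate, at 0.08.

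The RNA was uneven between cells of a type. In Stat4fl/flCD11cCre microglia the median cell with Cxcl9 had 3 UMIs and the highest had 144, and in WT microglia the median was also 3 and the highest 152. Among Ly6c2+ monocytes 5 of 1029 Stat4fl/flCD11cCre cells (0.486%) and 6 of 1241 WT cells (0.483%) had 100 or more UMIs of Cxcl9, whereas 10 or more were found in 74 Stat4fl/flCD11cCre cells and 188 WT cells. For Cxcl10 the same monocytes had 100 or more UMIs in 15 Stat4fl/flCD11cCre cells and 14 WT cells, and 10 or more in 114 Stat4fl/flCD11cCre cells and 238 WT cells. These counts are at full depth, with a median of 9963 UMIs per cell in Stat4fl/flCD11cCre and 7232 in WT. After thinning to equal depth, 10 or more UMIs were left in 2.55% of Stat4fl/flCD11cCre and 6.15% of WT monocytes for Cxcl9, and in 6.07% of Stat4fl/flCD11cCre and 10.7% of WT monocytes for Cxcl10. Over positive cells of the monocyte gate the mean was 21.6 UMIs of Cxcl9 in Stat4fl/flCD11cCre and 17.9 in WT, and 22.2 UMIs of Cxcl10 in Stat4fl/flCD11cCre and 19.4 in WT, at a median depth that was greater in Stat4fl/flCD11cCre.

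**Figure D3:**
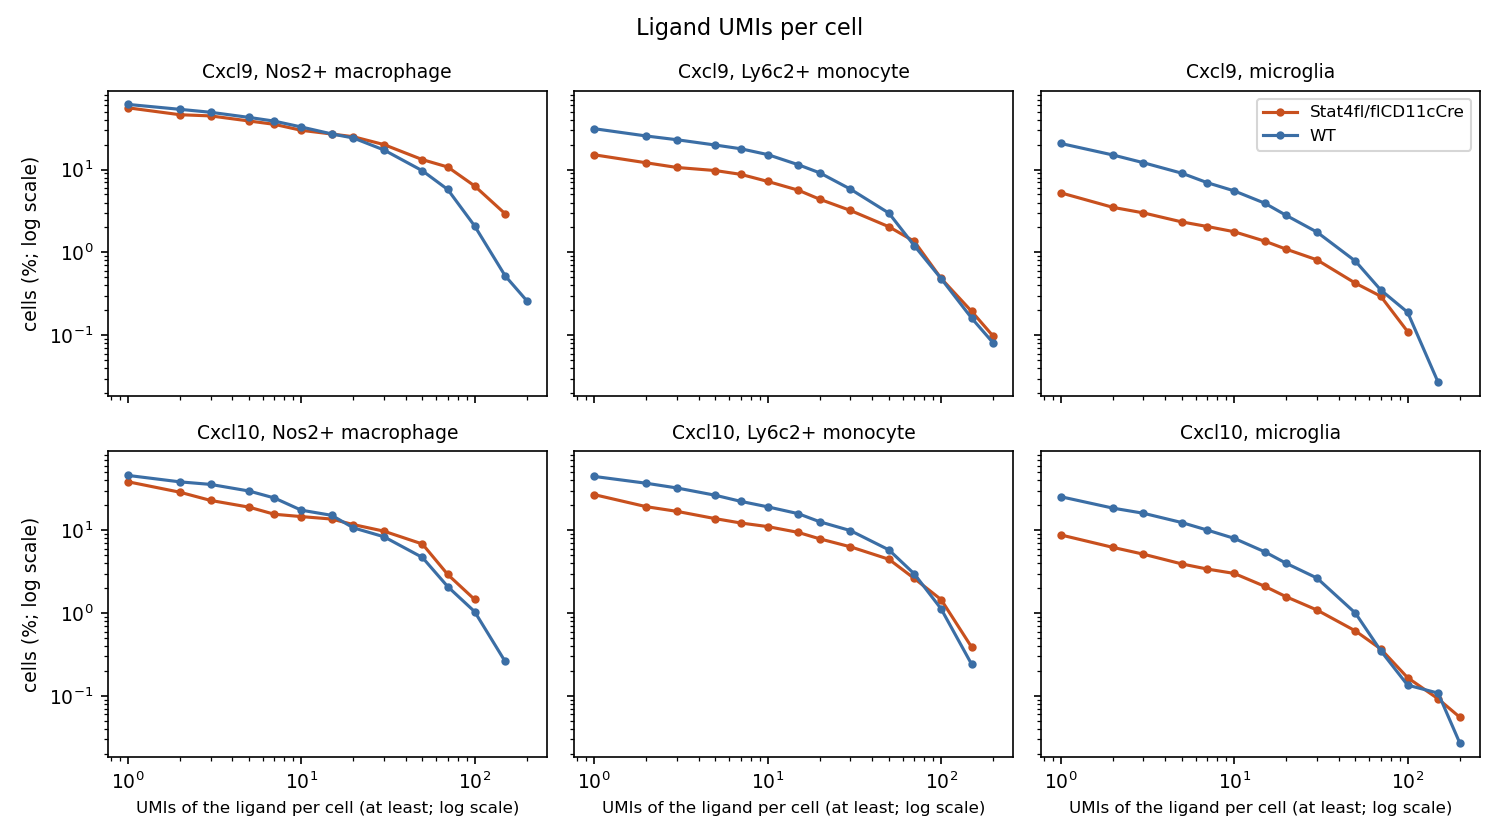
Share of cells (log scale) with at least a given number of ligand UMIs (log scale), for Cxcl9 (upper row) and Cxcl10 (lower row) in Nos2+ macrophages, Ly6c2+ monocytes and microglia of Stat4fl/flCD11cCre (orange) and WT (blue). In monocytes and microglia the curves are apart at low counts and meet at about 70 to 100 UMIs, where few cells remain. In Nos2+ macrophages they lie close together at low counts for Cxcl9. For Cxcl10 they are apart there, with 3 or more UMIs in 22.9% of Stat4fl/flCD11cCre cells and 35.8% of WT cells.

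Cells with one ligand more often had the other in the 3 larger monocyte-derived gates, microglia, neutrophils and cDC2 of both libraries, but not in Stat4fl/flCD11cCre cDC1, where 0 of 8 Cxcl9-positive cells had Cxcl10. After thinning, Cxcl10 was found in 51.7% of Cxcl9-positive and 12.99% of Cxcl9-negative Ly6c2+ monocytes of Stat4fl/flCD11cCre, and in 60.0% of Cxcl9-positive and 26.2% of Cxcl9-negative ones of WT. In microglia it was found in 32.0% of Cxcl9-positive and 5.002% of Cxcl9-negative cells of Stat4fl/flCD11cCre, and in 38.9% and 15.4% of such cells of WT. Cells without either ligand remained the majority even in these types, except in Nos2+ macrophages, where 52.5% of Stat4fl/flCD11cCre cells and 61.6% of WT cells had at least 1 of the ligands.

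Microglia were split by H2-Aa, an MHC class II gene, because the sort was for MHCII+ cells. H2-Aa RNA was detected in 26.5% of Stat4fl/flCD11cCre microglia and 78.3% of WT microglia. Among those with H2-Aa, Cxcl9 was 202 CPM (195 to 209) in Stat4fl/flCD11cCre and 313 CPM (306 to 320) in WT, and 9.14% (7.69 to 10.8) of Stat4fl/flCD11cCre and 16.8% (15.4 to 18.3) of WT cells had it. Among those without H2-Aa, Cxcl9 was 26.3 CPM (24.3 to 28.5) in Stat4fl/flCD11cCre and 24.96 CPM (19.97 to 30.8) in WT, whereas the share of these cells with it was lower in Stat4fl/flCD11cCre, at 1.05% (0.754 to 1.43), than in WT, at 2.65% (1.58 to 4.16). Most of the Cxcl9 of microglia was therefore in cells with MHC class II RNA, and these were a smaller part of Stat4fl/flCD11cCre microglia. The split was made at full depth, and microglia with H2-Aa were deeper. Their median was 9111 UMIs, against 4896 without H2-Aa, in Stat4fl/flCD11cCre, and 5880 against 3802 in WT. Cxcl10 was less tied to H2-Aa, with 272 CPM in Stat4fl/flCD11cCre and 403 CPM in WT among cells with it, and 83.8 CPM in Stat4fl/flCD11cCre and 188 CPM in WT among cells without it. Other types differed from microglia. In Ly6c2+ monocytes Cxcl9 was 347 CPM with and 197 CPM without H2-Aa in Stat4fl/flCD11cCre, but 616 CPM with and 878 CPM without it in WT. In Arg1+ Nos2- macrophages it was 279.5 CPM with and 329.5 CPM without H2-Aa in Stat4fl/flCD11cCre, and 438 CPM with and 1111 CPM without it in WT.

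Microglia with many ligand UMIs also differed in depth and in markers of other cells. Those with 10 or more Cxcl9 UMIs, 96 in Stat4fl/flCD11cCre and 204 in WT, had a median of 17010 UMIs in all in Stat4fl/flCD11cCre and 13505 in WT, and microglia with none had 5257 in Stat4fl/flCD11cCre and 4563 in WT. They had on average 3.64 markers of the monocyte-derived panels in Stat4fl/flCD11cCre and 3.41 in WT, and microglia with no Cxcl9 had 0.688 in Stat4fl/flCD11cCre and 1.06 in WT. The top 10% of doublet scores took in 34.4% of them in Stat4fl/flCD11cCre and 22.1% in WT, and 5.82% of those with none in Stat4fl/flCD11cCre and 4.92% in WT. Without those top 10% of scores the microglial ratio of Cxcl9 was -1.69, and among the 321 Stat4fl/flCD11cCre and 353 WT microglia with at most 1 marker of any other lineage it was -2.99, with Cxcl9 in 1.87% of those Stat4fl/flCD11cCre cells and 11.05% of those WT cells. Ly6c2+ monocytes with 10 or more Cxcl9 UMIs had a median of 9976 UMIs in Stat4fl/flCD11cCre and 7382 in WT, and those with none had 10056 in Stat4fl/flCD11cCre and 7215 in WT.

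For all monocyte-derived cells together, 1934 in Stat4fl/flCD11cCre and 2534 in WT, the ratio was -0.81 for Cxcl9 and -0.85 for Cxcl10, where 6.3% of genes were lower. It depended on the cells admitted: among the 305 Stat4fl/flCD11cCre and 690 WT cells with at most 1 marker of any other lineage it was -0.30 for Cxcl9 and -0.02 for Cxcl10. In that smaller set the share of cells with a ligand UMI was still lower in Stat4fl/flCD11cCre, at 30.8% against 38.6% in WT for Cxcl9 and 27.5% against 39.3% for Cxcl10.

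The number of cells and the level per cell together set where the RNA was. Of all Cxcl9 UMIs in gated cells, monocyte-derived cells held 65.9% in Stat4fl/flCD11cCre and 61.8% in WT, and microglia held 27.9% in Stat4fl/flCD11cCre and 28.4% in WT. Nos2+ macrophages alone held 27.7% of them in Stat4fl/flCD11cCre and 21.2% in WT, and were 2.01% of gated cells in Stat4fl/flCD11cCre and 3.79% in WT. Of Cxcl10 UMIs in gated cells, monocyte-derived cells held 52.6% in Stat4fl/flCD11cCre and 56.9% in WT, microglia 34.8% in Stat4fl/flCD11cCre and 33.6% in WT, and neutrophils 8.20% in Stat4fl/flCD11cCre and 5.36% in WT. DCs of the conventional gates held 1.82% of Cxcl9 UMIs in Stat4fl/flCD11cCre and 1.98% in WT, and 2.14% of Cxcl10 UMIs in Stat4fl/flCD11cCre and 0.630% in WT. Ungated cells, which fit no panel or several and were deeper (median 13754 UMIs in Stat4fl/flCD11cCre and 10485 in WT), held 29.8% of all Cxcl9 UMIs in Stat4fl/flCD11cCre and 43.8% in WT. Of all Cxcl10 UMIs they held 30.9% in Stat4fl/flCD11cCre and 45.4% in WT.

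**Figure D4:**
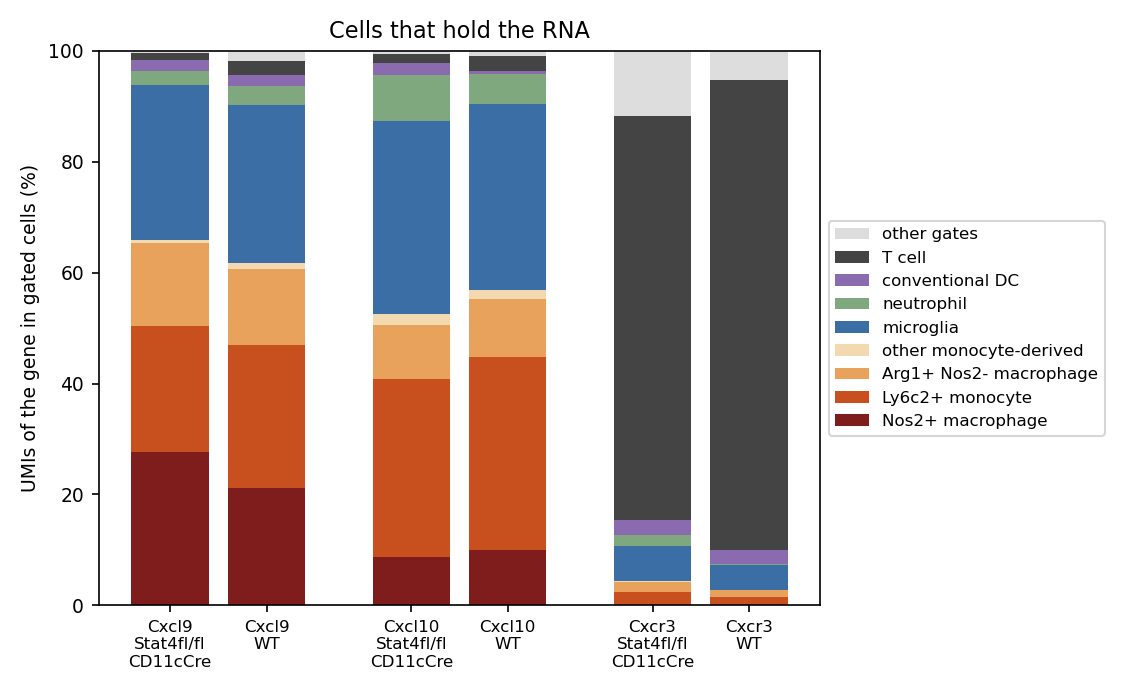
Share of the UMIs of each gene (Cxcl9, Cxcl10, Cxcr3) in gated cells by cell type, Stat4fl/flCD11cCre left of WT in each pair. Ungated cells are left out. Among gated cells, monocyte-derived gates and microglia hold most ligand RNA in both libraries, and T cells hold 72.7% of the Cxcr3 RNA in Stat4fl/flCD11cCre and 84.6% in WT.

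Genes that respond to the same signals were counted from fixed lists in the ligand-bearing types. In microglia 14 of 15 measured interferon-gamma targets were lower in Stat4fl/flCD11cCre, with a median log2 ratio of -1.14 beside 0.08 over all 13690 genes tested. Of all these genes 11.3% were lower. Iigp1, an interferon-induced GTPase, was at 75.9 CPM in Stat4fl/flCD11cCre and 269.7 CPM in WT (-1.83), and Gbp2, a guanylate-binding protein gene, at 95.2 CPM in Stat4fl/flCD11cCre and 267 CPM in WT (-1.49). All 12 measured type I interferon targets were lower in microglia as well (median -1.15), among them Oasl2, of the oligoadenylate synthetase family, at 52.0 CPM in Stat4fl/flCD11cCre and 126 CPM in WT, and Irf7, a transcription factor of the type I response, at 35.5 CPM in Stat4fl/flCD11cCre and 82.5 CPM in WT. Of the upstream signals and factors, Stat2 (-1.21), a factor of the type I interferon response, Irf1 (-1.08), which is also on the interferon-gamma list, and the feedback inhibitor Socs1 (-1.09) were lower. Ifngr1, the ligand-binding chain of the interferon-gamma receptor, had a ratio of 0.52 in microglia, short of 1.5-fold, and Ifngr2 one of 0.01. Genes of the type 1 lymphocyte list, which also holds the monocyte marker Ly6c2, were lower in the microglial gate as well: 8 of 12 were (median -0.82). Among them were Nkg7, of cytotoxic granules, at 7.52 CPM in Stat4fl/flCD11cCre and 14.5 CPM in WT (-0.95), and Cxcr6, a chemokine receptor gene, at 2.24 CPM in Stat4fl/flCD11cCre and 4.50 CPM in WT (-1.003). Cxcr3 itself was at 1.22 CPM in Stat4fl/flCD11cCre microglia and 2.68 CPM in WT microglia (-1.14). Their part in the ligand ratios was not tested.

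In Ly6c2+ monocytes 8 of 14 interferon-gamma targets and 7 of 12 type I interferon targets were lower in Stat4fl/flCD11cCre, with medians of -0.64 and -0.63 beside 0.00 over all genes. So were 4 of 10 genes of the type 1 lymphocyte list, which includes Ly6c2, the gene that defines this gate. Of all genes 7.28% were lower in these monocytes. Iigp1 was at 65.1 CPM in Stat4fl/flCD11cCre and 199 CPM in WT (-1.61), Gbp5 at 105 CPM in Stat4fl/flCD11cCre and 261 CPM in WT (-1.32), and Cd274, which encodes the checkpoint ligand PD-L1, at 86.7 CPM in Stat4fl/flCD11cCre and 179 CPM in WT (-1.04). In Nos2+ macrophages 2 of 14 interferon-gamma targets, Iigp1 (-0.68) and Gbp4 (-0.65), and 0 of 12 type I interferon targets were lower, with medians of -0.33 and -0.27. Of all genes 4.92% were lower in these macrophages. Arg1+ Nos2- macrophages had 3 of 14 interferon-gamma targets and 1 of 12 type I interferon targets lower, the second of which is near the 4.52% of all genes that were lower there. Conventional DCs had 1 of 13 interferon-gamma targets lower and 2 higher, where 3.95% of genes were lower and 5.1% higher. The difference between these cell types was not tested.

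Ifng RNA, the transcript of interferon-gamma, was scarcer in the Stat4fl/flCD11cCre library. Ifng UMIs numbered 196 per 1000 kept cells in Stat4fl/flCD11cCre and 424 in WT, and T cells and NK cells held 77.6% of them in Stat4fl/flCD11cCre and 79.1% in WT. Per cell type, Ifng was at 269 CPM (253 to 286) in CD4 T cells of Stat4fl/flCD11cCre and 343 CPM (329 to 358) in WT. In CD8 T cells it was at 77.7 CPM (64.1 to 93.3) in Stat4fl/flCD11cCre and 176 CPM (163 to 190.4) in WT, a ratio of -1.18, where 4.8% of genes were lower. In NK cells it was at 109.7 CPM (93.3 to 128) in Stat4fl/flCD11cCre and 87.5 CPM (72.7 to 104) in WT, and the interval of that ratio held 0. Whether the T cell share or Ifng bears on the ligands was not tested.

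The receptor was found in lymphocytes, plasmacytoid DCs and cDC1. CD8 T cells led, with 129 CPM of Cxcr3 in Stat4fl/flCD11cCre and 149.7 CPM in WT, and a UMI in 27.3% (21.2 to 34.2) of thinned Stat4fl/flCD11cCre cells and 32.3% (28.4 to 36.3) of thinned WT cells. At full depth the shares were 53.3% in Stat4fl/flCD11cCre and 54.2% in WT. CD4 T cells without Foxp3 had 50.1 CPM in Stat4fl/flCD11cCre and 67.3 CPM in WT, and a UMI in 11.2% (8.49 to 14.4) of Stat4fl/flCD11cCre cells and 16.5% (14.1 to 19.2) of WT cells. Foxp3+ T cells, the regulatory T cells, had 57.0 CPM in Stat4fl/flCD11cCre and 77.6 CPM in WT, and a UMI in 9.26% (4.53 to 16.4) of Stat4fl/flCD11cCre cells and 18.5% (13.4 to 24.6) of WT cells. CD8 T cells stood above CD4 and Foxp3+ T cells in each library with no overlap of intervals, and CD4 and Foxp3+ T cells overlapped. Gamma-delta T cells had a UMI in 12.3% of 57 Stat4fl/flCD11cCre cells and 8.45% of 71 WT cells, plasmacytoid DCs in 11.9% in Stat4fl/flCD11cCre and 10.6% in WT, and NK cells in 5.42% in Stat4fl/flCD11cCre and 8.37% in WT. cDC1 had 22.6 CPM (14.2 to 34.2) in Stat4fl/flCD11cCre and 29.98 CPM (21 to 41.5) in WT, close to NK cells at 27.8 CPM in Stat4fl/flCD11cCre and 32.4 CPM in WT. A UMI was found in 4.35% (0.906 to 12.2) of thinned Stat4fl/flCD11cCre cDC1 and 4.55% (1.49 to 10.3) of thinned WT cDC1, and at full depth in 24.6% in Stat4fl/flCD11cCre and 19.5% in WT. Microglia gave the background, with Cxcr3 in 0.211% of Stat4fl/flCD11cCre cells and 0.853% of WT cells.

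**Figure D5:**
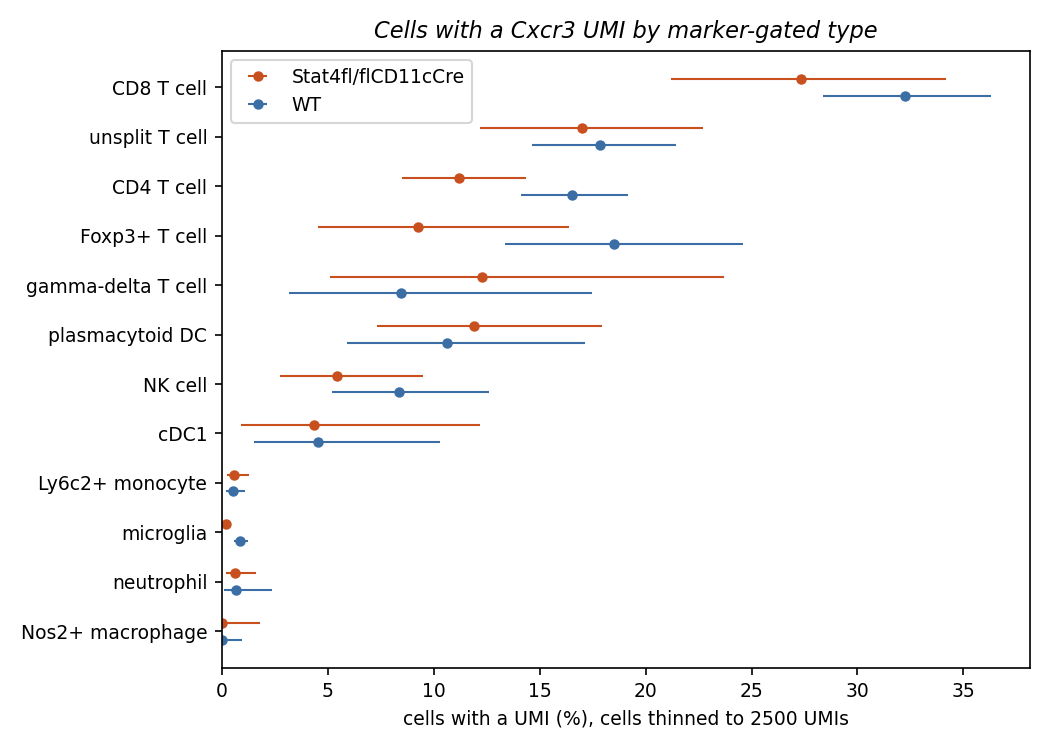
Share of cells with a Cxcr3 UMI after thinning to 2500 UMIs per cell, by gated type, in Stat4fl/flCD11cCre (orange, upper point) and WT (blue, lower point), with 95% Clopper-Pearson intervals. CD8 T cells lead at 27.3% in Stat4fl/flCD11cCre and 32.3% in WT, and the 4 myeloid gates at the bottom lie below 1%.

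By genotype the receptor differed less than the ligands. Cxcr3 was lower in Stat4fl/flCD11cCre in 5 of 6 lymphocyte gates but by 1.5-fold in 0 of them, in types where 4.8% (CD8), 4.89% (CD4), 5.07% (Foxp3+), 7.68% (gamma-delta), 4.63% (T cells that could not be split) and 3.28% (NK) of genes were lower. The ratio was -0.22 (-0.46 to 0.02) in CD8 T cells, -0.43 (-0.68 to -0.18) in CD4 T cells and -0.45 (-0.90 to -0.01) in Foxp3+ T cells. The count of 0 depended on the setting: Foxp3+ T cells passed 1.5-fold without the top 10% of doublet scores (-0.67), as a mean of per-cell CPM (-0.72), after thinning (-1.05) and without the 10 cells with most UMIs (-1.17), and CD4 T cells passed it under the last of these (-0.61). NK cells, whose intervals held 0, were past it after thinning (-0.63) and with at most 1 marker of any other lineage (-1.10). Over all T cells it was -0.40 (-0.54 to -0.25), where 4.3% of genes were lower, with 69.8 CPM in Stat4fl/flCD11cCre and 91.9 CPM in WT. The T cell mixture differed too, since CD8 T cells were 199 of 1071 T cells in Stat4fl/flCD11cCre and 583 of 2360 in WT. T cells of all kinds were 8.70% of kept cells in Stat4fl/flCD11cCre and 17.75% in WT. The number of receptor-bearing cells differed more than the level: T and NK cells with a Cxcr3 UMI were 367 in Stat4fl/flCD11cCre (2.98% of kept cells) and 912 in WT (6.86%). Myeloid cells with a UMI of either ligand were 12.6% of kept cells in Stat4fl/flCD11cCre and 22.6% in WT. An MHCII+ CD11c+ sort is not meant for T cells. The number of T cells in the tissue and the share of them that passed the gate therefore cannot be told apart.

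Among CD4 T cells Cxcr3 was not confined to those in which a type 1 transcript was detected. Cells with Tbx21, which encodes the type 1 regulator T-bet, had 40.3 CPM (29.8 to 53.2) in Stat4fl/flCD11cCre and 63.1 CPM (53.3 to 74.1) in WT. Cells without Tbx21 had 54.5 CPM (46.0 to 64.0) in Stat4fl/flCD11cCre and 69.7 CPM (61.8 to 78.4) in WT, so the intervals overlapped. They were shallower, with a median of 6005 UMIs against 8938 with Tbx21 in Stat4fl/flCD11cCre, and 4944 against 6678 in WT. Some of them may express Tbx21 undetected, so the split does not show that Cxcr3 is independent of Tbx21. CD4 T cells with Ifng and no Il17a had 43.9 CPM (32.0 to 58.8) in Stat4fl/flCD11cCre and 54.8 CPM (46.3 to 64.3) in WT. Those with neither cytokine had 62.0 CPM (51.9 to 73.4) in Stat4fl/flCD11cCre and 86.6 CPM (76.3 to 97.9) in WT, so the intervals were apart in WT and overlapped in Stat4fl/flCD11cCre, where the thinned shares were 12.1% with Ifng and 12.3% with neither. Those with Il17a, the cytokine of type 17 helper cells, and no Ifng were lowest, at 17.1 CPM (8.21 to 31.5; 53 cells) in Stat4fl/flCD11cCre and 22.8 CPM (11.8 to 39.8; 56 cells) in WT. In CD8 T cells Cxcr3 was lower in cells with Ifng, with 82.9 CPM (58.4 to 114) in Ifng+ and 149 CPM (126 to 174) in Ifng- cells of Stat4fl/flCD11cCre, and 117 CPM (97.0 to 139) in Ifng+ and 163 CPM (148 to 179) in Ifng- cells of WT. Cells with a cytokine UMI were deeper, so CPM, which scales for depth, is given here; after thinning the CD8 shares overlapped, at 22.0% of Ifng+ and 29.2% of Ifng- cells in Stat4fl/flCD11cCre, and 29.1% of Ifng+ and 33.3% of Ifng- cells in WT.

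Of the 12 type 1 lymphocyte genes, 5 were lower in Stat4fl/flCD11cCre CD4 T cells, where 4.89% of genes were lower. Ly6c2, an antigen of activated T cells, was at 55.7 CPM in Stat4fl/flCD11cCre and 121 CPM in WT, and Ccl5, a chemokine gene, at 312 CPM in Stat4fl/flCD11cCre and 477 CPM in WT. Il12rb2, which encodes an IL-12 receptor subunit, was at 55.7 CPM in Stat4fl/flCD11cCre and 89.4 CPM in WT, and Tbx21 at 44.7 CPM in Stat4fl/flCD11cCre and 69.3 CPM in WT. In CD8 T cells 1 of 12, Ifng, was lower, where 4.8% of all genes were. In NK cells 0 of 11 were lower, where 3.28% of all genes were. These counts are near those shares. Of the other genes of the CXCR3 axis, which include the G protein genes Gnai2 and Gnb1, the arrestin gene Arrb2 and Dpp4, a protease that trims these chemokines, 0 of 6 passed 1.5-fold in CD4 T cells, in CD8 T cells or in Ly6c2+ monocytes. In those types 4.89%, 4.8% and 7.28% of all genes were lower, in that order. In microglia, where 11.3% of all genes were lower, 2 of the 6 axis genes were. Dpp4 was at 2.49 CPM in Stat4fl/flCD11cCre and 5.401 CPM in WT (-1.12). Ezr, which encodes the membrane linker ezrin, was at 14.9 CPM in Stat4fl/flCD11cCre and 25.8 CPM in WT (-0.79). In Nos2+ macrophages, where 4.92% of all genes were lower, 1 of 5 was, Ezr (-0.63).

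Across 34 points, 17 gated types in each library, the genes whose log2(CPM + 1) levels were most like those of Cxcl9 were Gatm (Pearson r 0.86), Hk2 (0.85), Pik3r6 (0.85), Cxcl16 (0.84) and Cd40 (0.84), among 13682 candidates. For Cxcl10 they were Ccr1 (0.91), Marcksl1 (0.89), Ier3 (0.89), Nampt (0.89) and Amdhd2 (0.89). For Cxcr3 they were Ptprcap (0.91), Serp2 (0.91), Tespa1 (0.90), Slain1 (0.90) and Tanc1 (0.90). Cxcl9 and Cxcl10 had an r of 0.84 with each other, and Cxcr3 had -0.52 with Cxcl9 and -0.60 with Cxcl10. The points share libraries and differ in depth, so these values only describe the likeness of the profiles.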

How the data were processed

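Per the labels' protocols, cells were run on a 10x Genomics 3′ kit, 1 library per genotype. The deposited values are raw UMI counts per gene and barcode, made by the authors with Cell Ranger 7.0.0 and the mm10 genome per the submitters' processing notes. No label says whether free RNA or doublets were removed before deposit. The counts include 5 antibody tags, left out of gene totals.

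Cells were gated with 18 marker panels. UMIs were summed per library and type and scaled to CPM, with exact Poisson intervals, exact conditional binomial intervals for ratios and Clopper-Pearson intervals for shares (95%), in Python 3.11.15 with scipy 1.17.1. Genes with 50 or more UMIs in both libraries together were tested in types with 50 or more cells each. For ratios of all genes 0.5 UMIs were added to each sum. A share of 0 allows up to 3 counts. Doublet scores came from Scrublet in scanpy 1.11.5 and were used only in an alternative, which removed the top 10%. The ratio step was tested on simulated data. No test across samples was possible.

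Members, lists and panels were chosen with earlier results of these data known. All members are named in the text, with the 5 genes most like each (200 or more UMIs), and up to 4 genes per list, ranked by the interval bound nearest to 1, of which a part is printed. Ifng, Ifngr1, Ifngr2, Stat4, H2-Aa and Itgax were added for their roles. Cxcl11 and Mx1 were not analysed here. 1 gene of the upstream list is not reported here, so no count over that list is given.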

Additional observations from a re-analysis of the deposited data

How the results depend on the processing

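No paired analysis was possible because each genotype has 1 library. All 9 alternatives could be run for Cxcl9 in 5 of the myeloid and DC gates and for Cxcl10 in 6; small gates lacked cells or UMIs for some. Cxcl9 stayed 1.5-fold lower in all 9 in 3 of those gates (microglia, Ly6c2+ monocytes and neutrophils) and Cxcl10 in 2 (microglia and neutrophils). The ratio of Cxcr3 stayed below 0 in all 9 in T cells and CD8 T cells. In all monocyte-derived cells together both ligands stayed below 0, but the interval of Cxcl10 with at most 1 marker of other lineages held 0. The log2 ratio of Cxcl9 in microglia (-1.43) moved to -1.66 with 4 markers and a margin of 3, -1.55 with 2 and 1, -1.69 without the top 10% of doublet scores, -1.87 as a mean of per-cell CPM, -1.92 thinned, -1.65 without the 10 cells with most UMIs and -2.99 with at most 1 marker of other lineages. In the same order Cxcl10 in microglia (-1.19) moved to -1.38, -1.27, -1.26, -1.51, -1.59, -1.39 and -2.09. In monocyte-derived cells Cxcl9 (-0.81) moved to -0.89 under each of the 2 other gates, -0.67 as a mean of per-cell CPM, -0.71 thinned, -0.95 without the 10 cells with most UMIs and -0.30 with at most 1 marker of other lineages; Cxcl10 (-0.85) moved to -0.89 with the stricter gate, -0.89 without doublet scores, and to -0.70, -0.73, -0.97 and -0.0236 in the order given for Cxcl9. The last 2 settings were chosen after seeing the data. Single gates reversed as follows. Without the 10 cells with most UMIs, Cxcl9 in Nos2+ macrophages was -0.21, and Cxcl10 was -3.36 in cDC2 and -1.91 in conventional DCs. With 2 markers and a margin of 1, Cxcl9 in plasmacytoid DCs was 0.0794, and Cxcl10 was -0.44 in cDC2 and -0.45 in conventional DCs. With at most 1 marker of other lineages, Cxcl9 in conventional DCs was 0.19, and Cxcl10 was 0.51 in Nos2+ macrophages, 0.00367 in Ly6c2+ monocytes and -3.23 in conventional DCs. The cause of these changes was not tested. Counting intervals are narrow because UMIs are many, yet a few cells hold a large part of them, and with 1 pool per genotype the spread between mice is unknown.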

Other observations

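The libraries also carry 5 antibody tags. Microglia with a UMI of either ligand had a median of 59 counts of the CD317 tag in Stat4fl/flCD11cCre and 57.5 in WT, and those without one had 27 in Stat4fl/flCD11cCre and 26 in WT. CD317 is the protein of Bst2, an interferon-induced gene. As a percent of all tag counts of a cell the medians were 4.23% in Stat4fl/flCD11cCre and 5.95% in WT with a ligand, and 3.77% in Stat4fl/flCD11cCre and 4.89% in WT without. The CD11b tag, an integrin of myeloid cells, went the same way, at 815 counts in Stat4fl/flCD11cCre and 636 in WT with a ligand, and 381 in Stat4fl/flCD11cCre and 317 in WT without, and ligand-positive microglia were also deeper in RNA. In Ly6c2+ monocytes the CD317 share was 4.36% in Stat4fl/flCD11cCre and 4.35% in WT with a ligand, and 4.50% in Stat4fl/flCD11cCre and 4.84% in WT without.

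Cxcl9 was also found in mature DCs, the migratory state, though these were only 7 cells in Stat4fl/flCD11cCre and 6 in WT. They held 68 UMIs of Cxcl9 (1701 CPM) in Stat4fl/flCD11cCre and 71 (2179 CPM) in WT, and 0 UMIs of Cxcl10 in Stat4fl/flCD11cCre and 3 in WT. These values rest on so few cells that no comparison is made.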
